A study of Mus musculus with 15 samples.

Results

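Fibrillar and associated interstitial collagens were followed through 10 genes, Col1a1, Col1a2, Col3a1, Col5a1, Col5a2, Col6a1, Col6a2, Col8a1, Col12a1 and Col18a1, out of 57132 genes in each deposited table. Their rows were taken by gene name, and each name matched 1 row. The genes were chosen with earlier results of these data known, so counts called among them do not describe a blind choice. RNA came from mouse podocytes, which wrap the filtering capillaries of the kidney, in 5 groups of 3 libraries. One table set wild-type cells given vehicle beside Col4a3-/- cells given vehicle, and asks how the genotypes differ. The other 2 tables asked what treatment does to the knockout cells: Col4a3-/- cells were given vehicle (a separate set of 3 libraries), apolipoprotein M (ApoM, a plasma protein that carries sphingosine-1-phosphate) or CYM50358 (a compound that blocks S1PR4, a receptor of that lipid). The treated cells were exposed for 24 h. All treated cells and their controls therefore carry the Col4a3 knockout; the gene encodes a basement membrane collagen chain and whose loss models Alport syndrome. Doses, the vehicle, the deleted part of the gene, and how many independent lines or clones stand behind each genotype are not given in the labels, so a difference between genotypes is also a difference between lines. Nothing in the labels says that replicate libraries stem from different cultures, and so p-values speak of the spread among these libraries alone, which may be technical.

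Collagens are built from 3 chains wound into a triple helix, which may come from 1 gene or from several. Collagen I joins Col1a1 and Col1a2 chains, collagen III is made of Col3a1 chains alone, collagen V joins Col5a1 and Col5a2 chains and starts fibrils, and collagen VI needs Col6a1, Col6a2 and another chain to form beaded microfibrils. In the kidney, collagens I and III mark interstitial scarring and are laid down mainly by fibroblasts and mesangial-type cells, while mature podocytes are known for basement membrane collagen IV.

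Levels are given as signal, the authors' scaled CPM, in replicate order 1, 2 and 3, and differences are on the log2(signal + 1) scale. Depth was 45417221 to 83166742 reads per library, so that 1 read is worth a signal of 0.0118 to 0.0221, and all the collagen values other than those of Col1a2 rest on at least 176 reads a library. Col4a3 itself was 938.0 to 1268 in wild-type libraries, 60.9 to 81.8 in the knockout libraries beside them and 16.6 to 24.4 in the other vehicle knockout set, 22.0 to 23.4 after ApoM and 13.5 to 17.4 after CYM50358, so that its RNA was lower in the knockout libraries but not absent. Of 16 podocyte markers 11 were tested between the genotypes, of which 3 rose and 8 fell, against the 44.7% of all tested genes that limma called at an adjusted p under 0.05. Wt1, a podocyte transcription factor, was 15.2 to 25.8 in wild-type and 1.43 to 3.10 in knockout libraries of the genotype table, Synpo (a foot process actin protein) was 755.9 to 846.4 in wild-type and 489.6 to 556.7 in those libraries, Nphs1 (nephrin) did not pass a signal of 0.473 in wild-type cells, and Tcf21, a podocyte transcription factor, had 0 reads in all 15 libraries. Nphs1 and Tcf21 were thus at or near 0 in the wild-type cells labelled podocytes.

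Upstream sequence is shown for the 4 genes whose levels moved most and for which a promoter was matched in the RefSeq table (build GRCm38.p6; 7 of the 10 genes matched, all but Col1a1, Col5a2 and Col12a1). Each is printed 5′ to 3′ on the gene's own strand and ends at the first annotated transcript start; capitals mark the motifs searched on both strands, the TATA motif TATAAA, the CAAT box CCAAT and the GC box GGGCGG, which reads CCGCCC on the other strand. The Col1a2 stretch lies at chr6:4505368-4505492 on the plus strand, that of Col3a1 at chr1:45311288-45311537 on the plus strand, that of Col6a1 at chr10:76726169-76726294 on the minus strand and that of Col6a2 at chr10:76623631-76623880 on the minus strand.
Col1a2: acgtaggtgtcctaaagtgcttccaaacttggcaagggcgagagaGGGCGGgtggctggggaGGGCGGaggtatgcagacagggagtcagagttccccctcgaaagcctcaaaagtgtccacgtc
Col3a1: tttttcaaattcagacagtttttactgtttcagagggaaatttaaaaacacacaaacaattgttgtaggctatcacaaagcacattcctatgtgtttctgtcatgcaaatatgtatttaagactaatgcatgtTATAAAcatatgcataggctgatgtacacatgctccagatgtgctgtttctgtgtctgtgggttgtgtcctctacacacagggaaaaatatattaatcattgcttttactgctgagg
Col6a1: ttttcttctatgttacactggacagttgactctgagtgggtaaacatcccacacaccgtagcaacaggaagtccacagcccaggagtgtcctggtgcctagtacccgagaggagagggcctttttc
Col6a2: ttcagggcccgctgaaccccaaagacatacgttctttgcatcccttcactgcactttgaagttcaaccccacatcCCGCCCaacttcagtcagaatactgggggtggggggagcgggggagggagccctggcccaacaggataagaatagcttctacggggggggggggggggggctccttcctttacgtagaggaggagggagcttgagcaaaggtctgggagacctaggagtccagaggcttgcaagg
The fibrillar pair differs in these letters. In the printed stretches Col1a2 has 2 GGGCGG boxes, and Col3a1 has none but a TATAAA run starting 117 bases before its start. In RefSeq windows of 300 bases GC made up 61.0% of the Col1a2 window and 37.7% of the Col3a1 window, against a median of 52.7% over 32851 promoters. Beyond its printed stretch the Col1a2 window also held 2 CCAAT motifs, and the window of the other Col6a2 start held 3 GGGCGG. The motifs were common: 13.6% of all windows of 300 bases held TATAAA, 37.4% held CCAAT and 35.7% held GGGCGG. These windows are longer than the printed stretches, and a match describes the letters and nothing more.

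**Figure D1:**
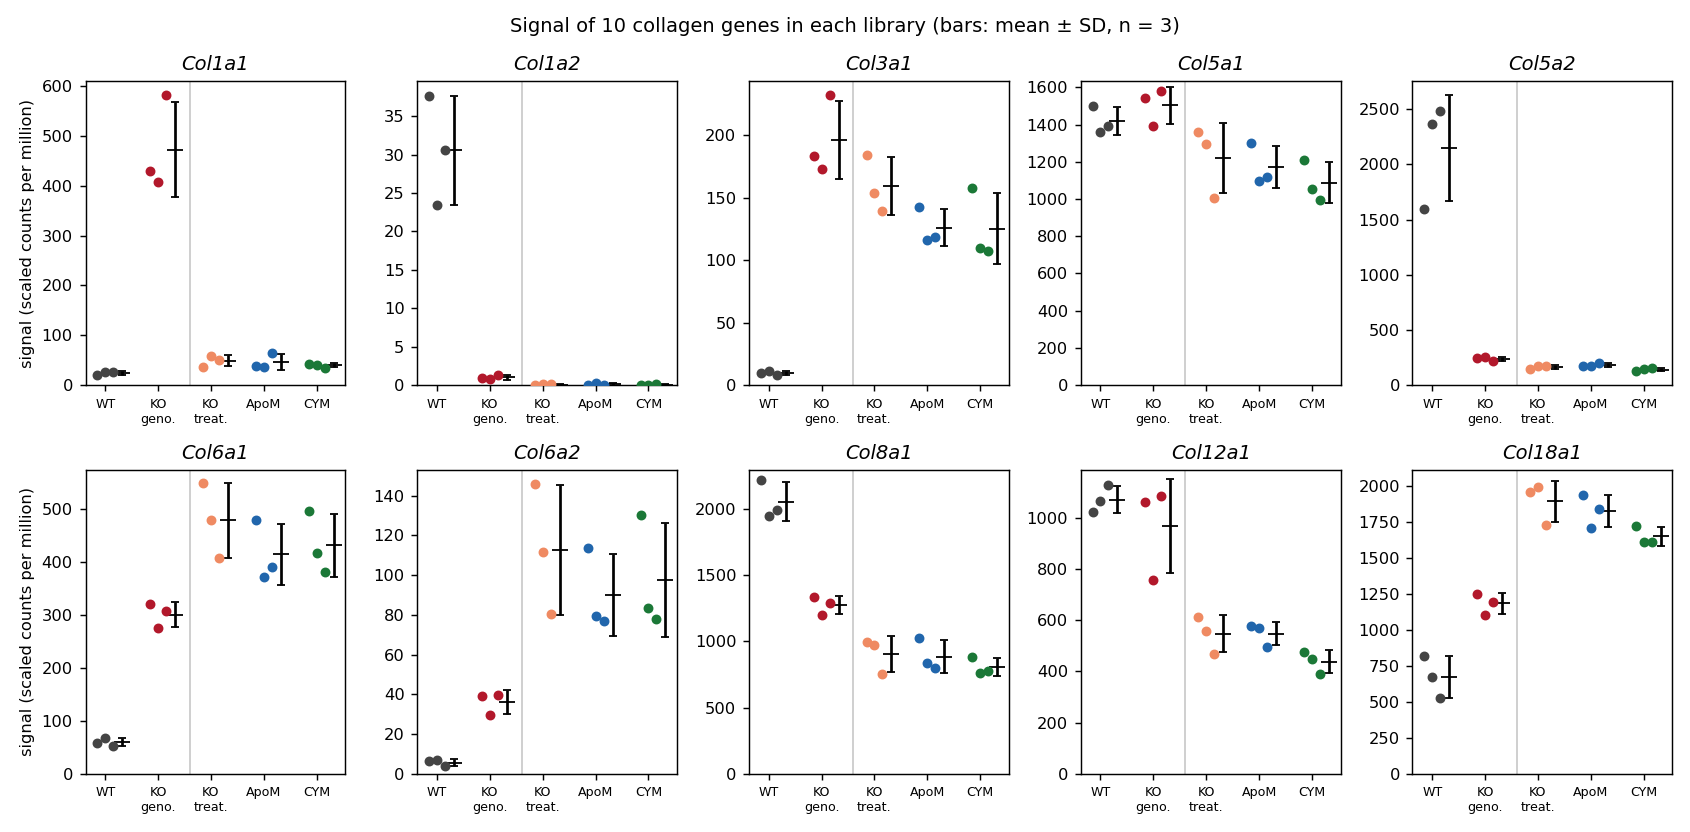
Signal (deposited values, read as scaled CPM, on linear axes from 0) of each of the 10 collagen genes in each of the 15 libraries. Points are libraries and bars the mean ± SD of 3. WT is wild type with vehicle, KO geno. and KO treat. are the vehicle knockout sets of the genotype and treatment tables, ApoM and CYM are treated knockout cells, and the grey line separates tables that were normalized separately. Col1a1 is high in 1 vehicle knockout set only (407.5 to 582.2 against 37.1 to 58.6), and Col1a2 is above 1.31 in wild-type libraries only.

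Between the genotypes, the interstitial collagens did not move as a block. In knockout cells Col1a1, Col3a1, Col6a1, Col6a2 and Col18a1 rose, Col1a2, Col5a2 and Col8a1 fell, and Col5a1 and Col12a1 did not pass the test. The 8 calls among 10 genes stand against 44.7% of 14313 tested genes that limma called at an adjusted p under 0.05 (Benjamini-Hochberg), 22.6% of all tested being higher and 22% lower. The groups did not overlap for 8 of the 10, against 55.8% of all genes, and the same number was called under every alternative tried. The median change over the 10 genes was 0.46, against 0.00 over all tested.

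The RNAs of the collagen I chains went opposite ways. Col1a1, the major chain of the collagen of bone, skin and scar (ENSMUSG00000001506.11, mm39 chr11:94827050-94843868, plus strand), was 19.5, 26.8 and 26.5 in wild-type libraries and 429.0, 407.5 and 582.2 in knockout libraries. All 3 knockout libraries lay far above all wild-type ones, a rise of 4.22 (SE 0.15, limma adjusted p = 8.6e-08). Col1a2, the minor chain of the same fibril (ENSMUSG00000029661.17, chr6:4504814-4541544, plus strand), was 37.7, 23.4 and 30.6 in wild-type and 0.930, 0.735 and 1.31 in knockout libraries. It fell by 3.97 (SE 0.18, limma adjusted p = 3.7e-07), and the edgeR estimate on the reads was -4.93, where the pseudocount of 1 is not used. The knockout values rest on 42, 38 and 73 reads, so the gene was read in every knockout library of this table.

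A ratio of reads within a library needs no scaling between libraries, and it shows how the reads of the collagen I genes changed against each other. It is not adjusted for transcript length, and protein was not measured. Wild-type libraries held 0.519 to 1.15 Col1a1 reads per Col1a2 read, a mean of 0.844 ± 0.315 (SD, n = 3), while knockout libraries held 461.3, 554.0 and 445.2. The log2 ratio differed by 9.24 with no overlap. An exact permutation test with 3 against 3 libraries cannot give a two-sided p under 0.1, which is the value it gave here (0.433 after adjustment over 13 ratio tests).

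Collagen III rose with Col1a1. Col3a1, the sole chain of the collagen III of vessel walls and early scar (ENSMUSG00000026043.19, chr1:45350698-45388866, plus strand), was 9.43, 11.0 and 7.84 in wild-type and 183.4, 173.2 and 232.1 in knockout libraries. Again every knockout library was above every wild-type library, with a rise of 4.24 (SE 0.13, limma adjusted p = 3.8e-08). By absolute change Col3a1 ranked 16, Col1a1 17 and Col1a2 29 among the 14313 genes. The number of Col3a1 reads per Col1a1 read was 0.296 to 0.482 in wild-type and 0.399 to 0.428 in knockout libraries, which overlapped (difference 0.10 on the log2 scale, exact permutation p = 0.8).

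In collagen V the ratio of the genes' reads changed through Col5a2. Col5a1, whose chain is needed to start collagen fibrils (ENSMUSG00000026837.17, chr2:27776437-27929526, plus strand), was 1502, 1361 and 1394 in wild-type and 1542, 1391 and 1579 in knockout libraries. These ranges overlapped, and its difference of 0.08 had a 95% interval of -0.11 to 0.28. Col5a2, its partner chain (ENSMUSG00000026042.17, chr1:45413481-45542442, minus strand), was 1599, 2367 and 2483 in wild-type and 246.9, 251.6 and 215.8 in knockout libraries. The wild-type libraries were all above the knockout ones, although replicate 1 stood well below the other two, and Col5a2 fell by 3.15 (SE 0.15, limma adjusted p = 6.2e-07). Col5a1 reads per Col5a2 read went from 0.940, 0.575 and 0.561 to 6.24, 5.53 and 7.31, a log2 difference of 3.23 without overlap (exact permutation p = 0.1, the smallest possible).

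Col3a1 and Col5a2 are neighbours on chromosome 1, on opposite strands with 24614 bases and no tested gene between them, and moved in opposite directions. The nearest other tested gene within 500 kb, Wdr75, differed by 0.07 (limma adjusted p = 0.50).

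Both collagen VI genes on the list rose, from low levels. Col6a1 (ENSMUSG00000001119.8, chr10:76544626-76562002, minus strand) was 58.7, 67.9 and 52.7 in wild-type and 319.4, 274.6 and 306.6 in knockout libraries, a rise of 2.31 (SE 0.09, limma adjusted p = 1.8e-07). Col6a2 (ENSMUSG00000020241.14, chr10:76431596-76459464, minus strand) was 6.23, 6.88 and 3.80 in wild-type and 39.2, 29.4 and 39.9 in knockout libraries, a rise of 2.50 (SE 0.19, limma adjusted p = 1.0e-05). Neither gene overlapped between the genotypes. Their read ratio moved little beside those of collagens I and V: Col6a1 reads per Col6a2 read were 9.42 to 13.9 in wild-type and 7.69 to 9.35 in knockout libraries (log2 difference -0.38, exact permutation p = 0.1, the smallest possible).

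The most common partner chain, Col6a3, was barely read, at 0.778 ± 0.126 in wild-type and 0.322 ± 0.203 in knockout cells (SD, n = 3 each). Col6a3 fell by 0.44 (limma adjusted p = 0.028). The knockout mean lay below the filter's signal of 0.5, so this call carries little weight. Vehicle cells of the treatment table had a Col6a3 mean of 0.574 ± 0.210 (SD, n = 3), a difference from wild type of -0.18 without a test. Col6a1 and Col6a2 lie 85161 bases apart with no tested gene between them, and Col18a1 lies 326009 bases beyond Col6a1. Genes around them also rose, by less: Prmt2 by 0.59, Lss by 0.55, Dip2a by 0.53, Mcm3ap by 0.51, Ybey by 0.45 and Slc19a1 by 0.44. Pcnt (0.29, limma adjusted p = 0.097) and Pcbp3 (0.17, adjusted p = 0.25), which lies between Col6a1 and Col18a1, did not pass the test. Over the 693 tested genes of chromosome 10 the median change was 0.28, with 394 genes called higher and 53 lower. Other chromosomes shifted too: the median was 0.28 on chromosome 8, 0.17 on 5, 15 and 19, -0.16 on 4 and -0.17 on 6, which holds Col1a2. The 3 collagen genes on chromosome 10 were still called once each chromosome's median was subtracted. The part that the chromosome-wide shift has in the rise of these 3 genes was not tested.

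Of the collagens that associate with fibrils or basement membranes, Col18a1, the source of endostatin and a heparan sulfate proteoglycan of basement membranes (ENSMUSG00000001435.16, chr10:76888012-77002382, minus strand), was 820.5, 672.7 and 524.6 in wild-type and 1252, 1106 and 1197 in knockout libraries. The wild-type libraries were spread widely but stayed below all knockout libraries, and Col18a1 rose by 0.84 (SE 0.14, limma adjusted p = 0.0013). It overlaps Slc19a1 on the other strand, whose signal never passed 17.5. Whether counting used strand is not given in the sources used here, so reads in overlapping stretches are uncertain; other genes that overlap the collagens reached at most 6.94.

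Col8a1, a short-chain network collagen of vessel walls and of the Descemet membrane of the eye (ENSMUSG00000068196.6, chr16:57444621-57575100, minus strand), was 2221, 1944 and 1993 in wild-type and 1334, 1197 and 1292 in knockout libraries. It fell by 0.69 without overlap (SE 0.09, limma adjusted p = 0.00031). Col12a1, which sits on the surface of collagen I fibrils (ENSMUSG00000032332.18, chr9:79506273-79626113, minus strand), was 1021, 1066 and 1126 in wild-type and 1060, 758.0 and 1085 in knockout libraries. These ranges overlapped, and the difference of -0.16 had a 95% interval of -0.46 to 0.13; the sign rests on knockout replicate 2, without which it was 0.00.

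**Figure D2:**
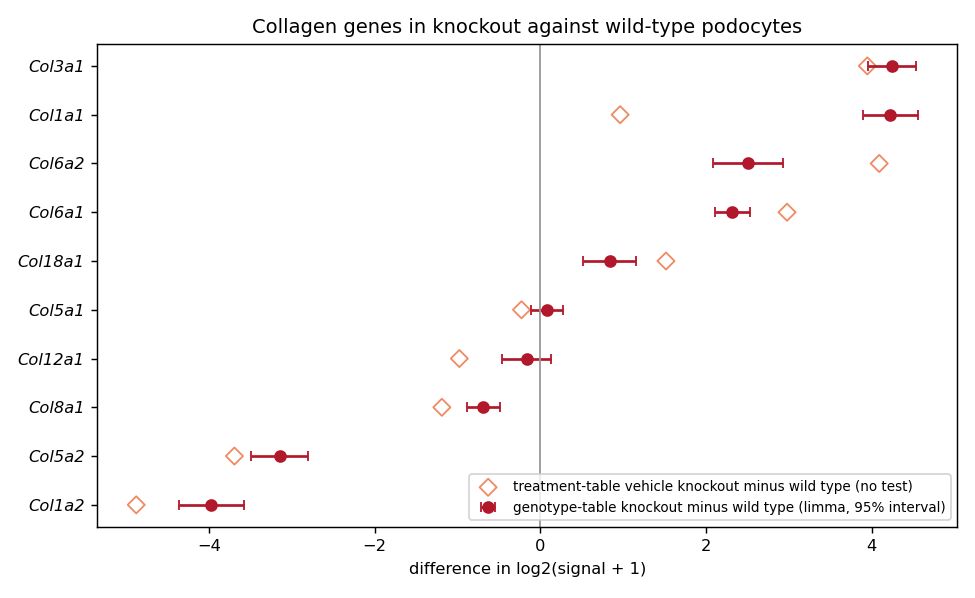
Difference in log2(signal + 1) of each collagen gene from wild-type cells: filled points with 95% intervals are the limma estimates for the knockout libraries of the same table (n = 3 and 3), open diamonds the vehicle knockout set of the treatment table, set against the same wild-type libraries without a test because that table was normalized separately. Col1a1 stands at 4.22 in one set and 0.96 in the other, while Col3a1 stands at 4.24 and 3.94.

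The vehicle knockout sets differed from each other in the collagens, and on the log2(signal + 1) scale most of all in Col1a1. Their tables were normalized separately, so these levels are set side by side with no test. Col1a1 was 37.1, 58.6 and 50.1 in the treatment table, 9.73-fold below the set of the genotype table and 0.96 above wild type. Col6a2 was 145.9, 111.7 and 80.4, 3.12 times its level in the other set. These were the 2 of 10 genes that differed by at least 2-fold without overlap on the log2(signal + 1) scale, against 3.69% of 14052 genes (1.12% higher and 2.57% lower in the treatment table).

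Col1a2, too low for that scale, had the larger fold, 17.8-fold lower in the treatment table, where it had 1, 4 and 5 reads. Col12a1 was 611.0, 559.3 and 468.4 there and differed from wild type by -0.98, against -0.16 in the genotype table. Col18a1 was 1960, 1998 and 1733, and Col6a1 548.7, 478.4 and 407.1, both above the other knockout set. Col5a2 (146.1, 169.6 and 172.8) and Col8a1 (993.2, 971.0 and 751.5) lay below it. The log2 differences between the sets were 0.68 for Col18a1, 0.66 for Col6a1, -0.55 for Col5a2 and -0.50 for Col8a1. Col3a1 (184.5, 154.0 and 139.5) was the gene whose sets overlapped, and Col5a1 (1360, 1295 and 1007) differed by -0.31. For 9 of the 10 genes the sets did not overlap, against 51.4% of all genes, and the median absolute difference over all genes was 0.21.

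Set against the same wild-type libraries, which enter both differences, Col5a2 stood at -3.15 in the genotype table and -3.69 in the treatment table, and Col6a2 at 2.50 and 4.09. The chain ratios that hold Col1a1 also differed between the sets. Col3a1 reads per Col1a1 read were 4.97, 2.63 and 2.78 in this set, against 0.399 to 0.428 in the other, whereas Col5a1 reads per Col5a2 read were 9.31, 7.63 and 5.83, against 5.53 to 7.31. Col6a1 reads per Col6a2 read were 3.76 to 5.06, below the 7.69 to 9.35 of the other set.

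**Figure D3:**
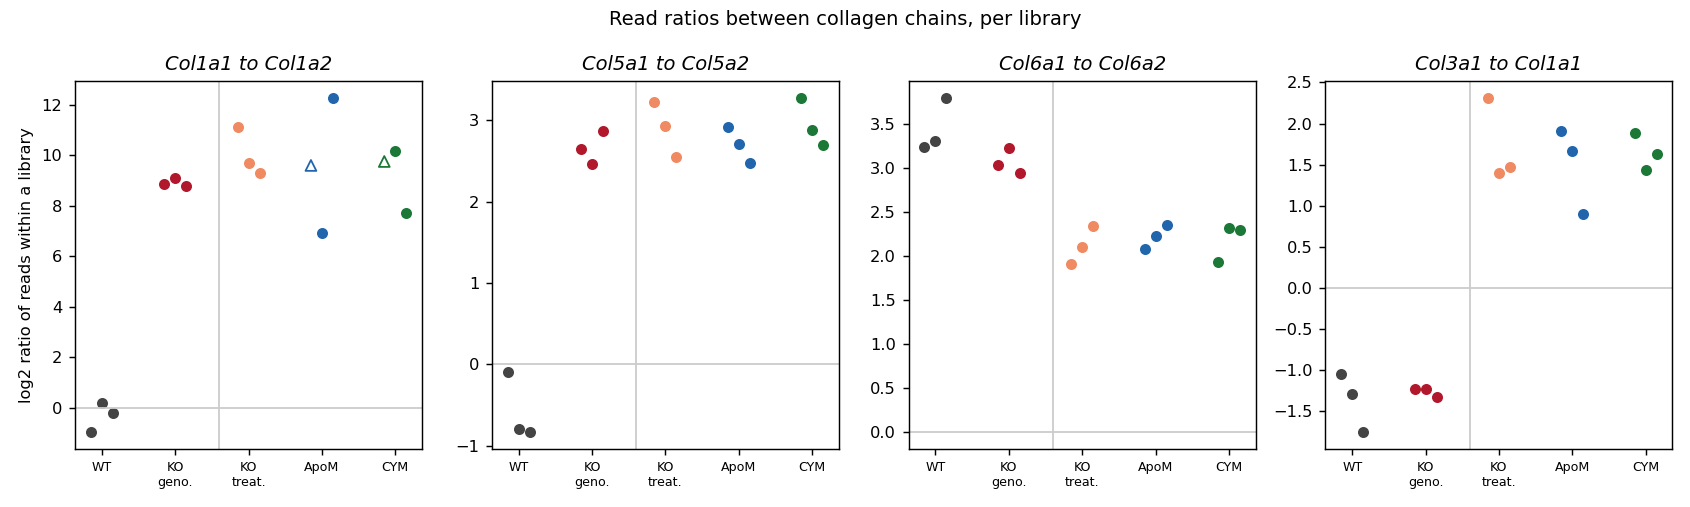
Log2 ratio of the reads of 2 collagen genes within each library, for Col1a1 to Col1a2, Col5a1 to Col5a2, Col6a1 to Col6a2 and Col3a1 to Col1a1, in the 5 groups of 3; open triangles are lower bounds where Col1a2 had 0 reads (a floor of 3 reads per library). The first ratio is near 0 in wild type and 8.80 to 9.11 in the genotype table's knockout libraries, and the last is below 0 in that table and above 0 in all 9 libraries of the treatment tables.

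Per kilobase of the longest coding transcript (GENCODE M21, matched by gene ID), the make-up of the 10-gene pool differed between the sets. In wild-type cells Col8a1 made up 35.4% ± 3.04 of the summed signal per kilobase, Col5a2 28.5% ± 6.04, Col5a1 14.9% ± 0.970 and Col18a1 10.6% ± 2.48 (SD, n = 3). The genes of collagens I and III, Col1a1, Col1a2 and Col3a1, each made up less than 1% there, with Col1a2 at 0.504%. In the knockout cells beside them Col8a1 was at 26.1% ± 0.850, Col18a1 at 22.2% ± 0.758, Col5a1 at 18.7% ± 0.197, Col1a1 at 8.31% ± 1.29 and Col5a2 at 3.78% ± 0.551.

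Col18a1 led the pool in the treatment table's vehicle cells with 37.3% ± 1.76, before Col8a1 at 19.4% ± 0.750 and Col5a1 at 15.9% ± 0.697; Col1a1 was at 0.912% ± 0.241. In the order of levels per kilobase, Col18a1 and Col12a1, Col1a2 and Col1a1, and Col3a1 and Col6a2 overlapped as neighbours in wild type. In the genotype table's knockout cells the neighbours Col12a1 and Col1a1, Col1a1 and Col6a1, and Col5a2 and Col3a1 did. The summed signal of the 10 genes, not per length, was 7495 ± 179 in wild type, 6175 ± 512 in the knockout cells beside them and 5530 ± 631 in the other vehicle set (SD, n = 3).

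**Figure D4:**
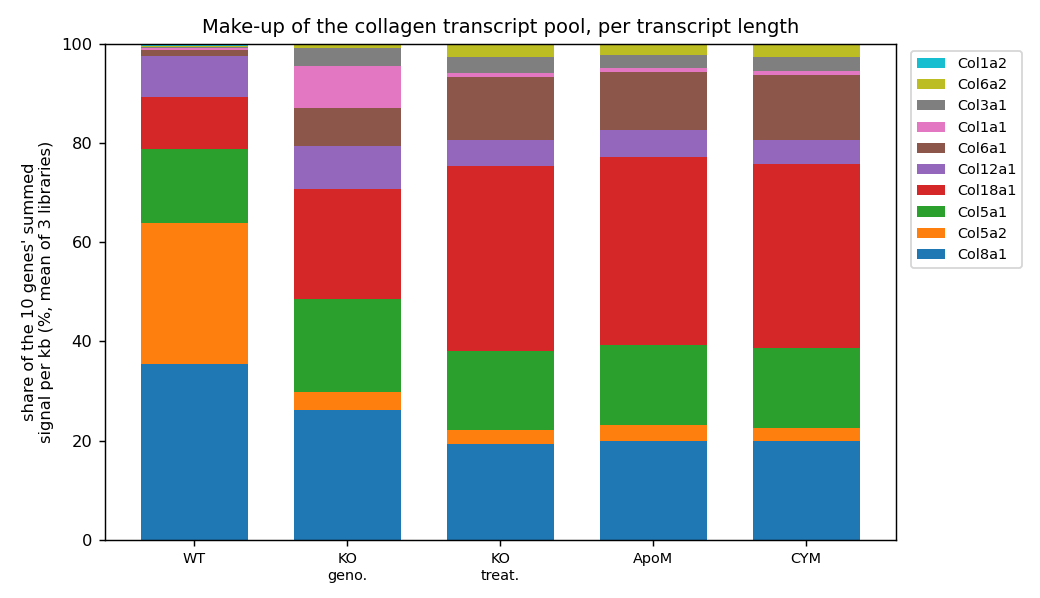
Share of each collagen gene in the 10 genes' summed signal per kilobase of transcript, in percent, as the mean of 3 libraries in each of the 5 groups. Col5a2 takes 28.5% in wild type and 3.78% in the knockout cells of the genotype table, where Col1a1 takes 8.31%; Col18a1 takes 37.3% in the vehicle cells of the treatment table.

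Over 6 lists of other genes that make, finish, bind or control collagen, 98 were tested between the genotypes, of which limma called 33 higher and 24 lower. These counts stand against 44.7% of all tested genes called, 22.6% higher and 22% lower, and so do the counts of each list. Of 28 other collagen genes 17 could be tested and 7 rose and 2 fell, with a median of 0.32. Differences from wild type in the other vehicle set, given for some genes, rest on the same wild-type libraries and have no test. Among the called genes with the largest changes, named below, their sign differed only for P3h3. It also differed for other called genes of these lists (genotype table first): Col11a2 (0.80 and -1.20), Col9a3 (0.65 and -0.36), Col20a1 (0.57 and -0.93), Scx (0.40 and -0.003) and Plod3 (0.25 and -0.25). Col24a1 (a minor fibrillar collagen) rose by 1.32, Col8a2 (the partner chain of Col8a1) by 1.07 and Col5a3 (another collagen V chain) by 0.96 (2.73 in the other vehicle set), and Col22a1 (a collagen of tissue junctions) fell by 1.43; the highest of these means was 7.83 ± 1.85, of Col5a3 in knockout cells (SD, n = 3). Of 24 genes that fold, hydroxylate and export collagen chains, 22 were tested, 5 rose and 5 fell, a share near that of all genes, with a median of -0.02.

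Serpinh1, the collagen chaperone HSP47, rose by 0.51, and Colgalt1, which adds galactose to hydroxylysine, by 0.59 (0.21 in the other vehicle set). P3h3, a prolyl hydroxylase family member, rose by 0.32 but stood at -0.34 in the other vehicle set. Plod2, which hydroxylates telopeptide lysines, fell by 0.54, Fkbp14 by 0.33 (-0.74 in the other vehicle set) and Klhl12, an adaptor for collagen export, by 0.31. All of these had a limma adjusted p of at most 0.0078.

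Among the genes of these lists, the largest rises were in propeptide cleavage and crosslinking. Of 15 genes 12 were tested, 6 rose and 3 fell, with a median of 0.22. Loxl2, a lysyl oxidase that crosslinks collagen, rose by 4.77. Adamts2, the protease that removes the amino propeptide of procollagens I and III, went from 0.166 ± 0.117 to 11.4 ± 0.516 (SD, n = 3; 3.42, limma adjusted p = 6.9e-08), and Pcolce2, an enhancer of carboxy propeptide cleavage, rose by 1.10 (0.41 in the other vehicle set). Lox, another crosslinking oxidase, fell by 0.71, Loxl3 by 0.51 and Bmp1, the carboxy propeptide protease, by 0.30 (-1.12 in the other vehicle set).

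Of 17 fibril-binding genes 12 were tested, 6 rose and 3 fell, with a median of 0.25. Ogn (osteoglycin) rose by 2.63, Thbs2 (thrombospondin-2) by 2.18 and Postn (periostin) by 2.12. Bgn (biglycan) fell by 7.05, Thbs1 by 0.80 (-1.93 in the other vehicle set) and Tnc (tenascin-C) by 0.54. Of 10 collagen receptors 8 were tested, and Mrc2 (an uptake receptor for collagen) rose by 1.71, while Itga11 and Itga1 (collagen-binding integrin chains) fell by 1.02 and 0.68 and Ddr1 (a collagen-activated kinase) by 0.63.

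Of 29 regulators of interstitial collagen genes 27 were tested, 8 rose and 8 fell, with a median of 0.02. Twist2 and Twist1, transcription factors of mesenchymal cells, rose by 2.33 and 1.47, and Nfyb, a subunit of the factor that binds CCAAT, by 0.52. Prrx1 fell by 0.72 (-0.32 in the other vehicle set), Skil by 0.53 and Tgfb3 by 0.49.

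Mesangial and fibroblast markers other than collagens were measured beside these genes. Of 15 such markers 12 were tested, and Postn, Dcn and Pdpn rose while Cspg4, Pdgfrb, Thy1 and Tagln fell, again against 44.7% of all genes called. Pdpn rose by 0.47 but stood at 0.04 in the other vehicle set. The summed signal of the 15 was 10027 to 12414 in wild-type, 9424 to 10960 in knockout libraries of the genotype table and 9497 to 11150 in the other vehicle set. Acta2 (5503 to 7627 in wild-type and 6279 to 7383 in knockout libraries of the genotype table) and Tagln (4020 to 4341 and 2673 to 3138) made up most of these sums, which therefore say little of the other markers. Lum had 0 reads in all libraries, and Pdgfra did not pass 1.02. Pdgfrb was 242.0 to 267.9 in wild-type and 114.5 to 115.4 in knockout libraries. In bulk RNA a larger share of some cells and more RNA per cell cannot be told apart, and the part of these markers in the collagen values was not tested.

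ApoM did not move the collagens past the threshold. None of the 9 genes tested was called by limma, edgeR or DESeq2, against 0.0434% of 13839 genes called by limma, and the groups of all 9 overlapped, where 10.7% of all genes did not. Col1a2 was too low to be tested, at 0, 19 and 1 reads after ApoM. Differences ran from -0.33 to 0.15. The 95% interval left out 0 for Col3a1 and Col6a1. Col3a1 was 142.7, 116.1 and 118.8 after ApoM against 184.5, 154.0 and 139.5 with vehicle (-0.33, 95% interval -0.52 to -0.15, limma adjusted p = 0.44). Col6a1 was 479.4, 372.0 and 390.4 against 548.7, 478.4 and 407.1 (-0.21, 95% interval -0.40 to -0.01, limma adjusted p = 0.90). Both were lower on average after ApoM, but the treated and vehicle libraries mixed.

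CYM50358 likewise gave no call among the 9 genes with limma or edgeR, against 2.59% of 13877 genes called by limma. It shares its 3 vehicle libraries with the ApoM comparison. Each of the 9 estimates was below 0, between -0.36 and -0.15, with a median of -0.21 against -0.002 over all tested genes. All 9 rest on the same libraries, so a common sign is not 9 independent results. Col3a1 was 157.7, 110.0 and 107.2 (-0.36, adjusted p = 0.10) and Col12a1 476.7, 449.8 and 388.8 against 611.0, 559.3 and 468.4 with vehicle (-0.31, 95% interval -0.50 to -0.13, adjusted p = 0.064). Col18a1, at 1725, 1615 and 1615 against 1960, 1998 and 1733, was the gene whose groups did not overlap (-0.20, adjusted p = 0.18), where 20.9% of all genes did not overlap.

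Leaving out 1 library brought some of these past the threshold: limma called Col3a1 (adjusted p = 0.0050) and Col12a1 (0.039) without CYM50358 replicate 1, Col12a1 (0.0086) without vehicle replicate 3 and Col1a1 (0.036) without vehicle replicate 1. DESeq2 on the same libraries called Col12a1 (adjusted p = 0.010) and Col18a1 (adjusted p = 0.024). The authors' deposited table lists them at -0.32 (adjusted p = 0.0098) and -0.20 (adjusted p = 0.024). It rests on the same libraries and is no second support. In these tables replicate 1 was the highest library for 6 of 9 genes with vehicle, 7 with ApoM and 8 with CYM50358, and replicate 3 the lowest for 7 with vehicle and 7 with CYM50358.

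Set directly against each other, the treatments differed in 2 of the 9 collagens. Col5a2 was 171.5, 168.3 and 201.3 after ApoM and 125.0, 142.7 and 153.8 after CYM50358, higher by 0.36 after ApoM (SE 0.08, limma adjusted p = 0.010). Col12a1 was 578.2, 567.5 and 496.5 after ApoM and 476.7, 449.8 and 388.8 after CYM50358, higher by 0.32 (SE 0.07, limma adjusted p = 0.014). Every ApoM library was above every CYM50358 library for both genes, against 19.5% of all genes without overlap. Limma called 2.59% of 13878 genes in this comparison, 1.22% higher after ApoM.

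Against vehicle, ApoM gave 0.15 for Col5a2 (95% interval -0.01 to 0.30) and 0.01 for Col12a1 (-0.16 to 0.18), and CYM50358 -0.21 and -0.31; these share the vehicle libraries. The Col5a2 call was lost without ApoM replicate 3 (adjusted p = 0.064) and without CYM50358 replicate 2 (0.050), and that of Col12a1 without ApoM replicate 1 (0.12) or 2 (0.083) or CYM50358 replicate 2 (0.055). Testing all genes without the filter on low values also ended both calls (0.32 for Col5a2 and 0.35 for Col12a1), and 1 fit over all 9 treatment libraries that of Col12a1 (0.051). Same-numbered ApoM and CYM50358 libraries deviated together (correlations of 0.132, 0.115 and 0.132). With the replicate number as a block limma called 4 of the 9, adding Col18a1 (0.15, adjusted p = 0.012) and Col8a1 (0.12, adjusted p = 0.043), all higher after ApoM. The block also raised the number called over all genes, which is given in the closing section. This pairing was taken from the same values, so these calls add no independent support. The remaining 5 genes had estimates between -0.10 and 0.18.

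**Figure D5:**
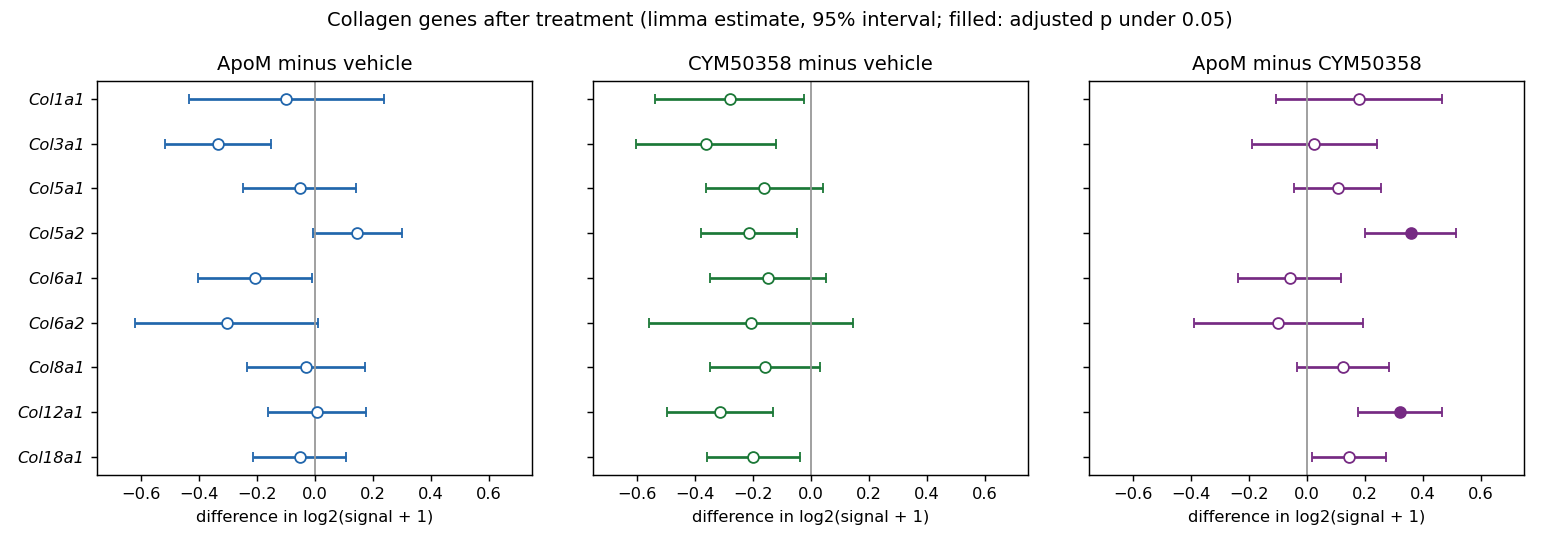
Limma estimates with 95% intervals of the difference in log2(signal + 1) for the 9 collagen genes tested, in the 3 comparisons among the treatment libraries (n = 3 libraries a group; Col1a2 was too low). Filled points have an adjusted p under 0.05: only Col5a2 (0.36) and Col12a1 (0.32) in the direct comparison. The 9 estimates for CYM50358 minus vehicle rest on the same libraries, and none of them was called.

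Chain ratios overlapped between the treatments. Col5a1 reads per Col5a2 read were 7.57, 6.51 and 5.55 after ApoM, 9.69, 7.38 and 6.49 after CYM50358 and 9.31, 7.63 and 5.83 with vehicle. Col3a1 reads per Col1a1 read were 1.86 to 3.75 after ApoM and 2.69 to 3.71 after CYM50358, and Col6a1 reads per Col6a2 read 4.22 to 5.09 and 3.81 to 4.97. In unpaired tests exact permutation p ran from 0.4 to 0.9. By replicate number, Col5a1 reads per Col5a2 read were lower after ApoM than after CYM50358 in 3 of 3 pairs, a mean log2 difference of -0.25 with an exact two-sided sign-flip p of 0.25, the smallest that 3 pairs allow. Col1a2 had 0, 3 and 14 reads after CYM50358, so no test of the collagen I ratio was made in the treatment tables.

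In the other collagen lists, limma called none of 95 genes for ApoM against vehicle, and edgeR none either. Limma called 0.0434% of all genes there. For CYM50358 against vehicle limma called 7 of 96, against 2.59% of all genes: Adamts14 (an amino propeptide protease) fell by 0.62, Tll1 (a carboxy propeptide protease) by 0.51, Col16a1 (a fibril-associated collagen) by 0.34, Tgfb3 by 0.32 and Itgb1 (the common integrin beta chain) by 0.31, while Cebpb rose by 0.77 and Scx, a tendon transcription factor, by 0.40 (limma adjusted p from 0.0061 to 0.047). Adamts14 was 8.71 ± 0.653 after CYM50358 and 13.99 ± 2.35 with vehicle, and Scx 77.3 ± 4.42 and 58.4 ± 3.53 (SD, n = 3). In the direct comparison limma called 3 of 97, against 2.59% of all genes: Itgb1 was higher by 0.25 after ApoM, and P4ha2 (a prolyl hydroxylase) and Cebpb were lower by 0.32 and 0.63. Mesangial and fibroblast markers summed to 8358 to 9831 after ApoM and 8534 to 9222 after CYM50358, against 9497 to 11150 with vehicle. Limma and edgeR called none of the 8 tested. The part of these markers in the collagen differences was not tested.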

How the data were processed

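RNA of 15 mouse podocyte samples was sequenced from mRNA libraries (a commercial kit, per the labels' protocols). Per the submitters' processing notes the build was mm39 and the tools were STAR, edgeR, Trim Galore and FastQC; what each did, and any strand setting, is not given in the sources used here. The 3 deposited tables give 57132 genes, with 1 column of signal per library that the authors deposited with no stated unit; columns sum to 972556.4 to 1026941.8. The tables further hold, per the file headers, a base mean, log2 fold changes with their errors, a score (the test statistic) and p-values, all by the authors. Between the genotypes the authors' log2 fold change of Col1a1 was that of DESeq2 on the recovered reads (4.28 in both), though the notes name edgeR. Values were whole multiples of a step per library, which gave whole reads for 100% of values (tolerance 0.01) and 45417221 to 83166742 reads per library. The vehicle columns of both treatment tables were identical and were used once.

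Genes reaching a signal of 0.5 in 3 or more of the libraries fitted were tested with limma 3.58.1 (trend) on log2(signal + 1), on the 2 groups compared, with Benjamini-Hochberg adjustment over all genes; on the recovered reads edgeR 4.0.16 called 6342 genes between genotypes, 6 and 264 for ApoM and CYM50358 against vehicle and 306 between the treatments, and DESeq2 1.42.0 was a further alternative. The limma fit was tested on simulated data. Tests stayed within a table. The 10 genes and all lists were chosen with earlier results of these data known. The text names the 10 genes, Col4a3, and, from each list, up to 3 called genes per direction with the largest change (any called gene for ApoM). Genes neighbouring or overlapping the collagens, Col6a3, the cell type markers and the list genes given for a changed sign fall outside that rule. They were chosen after their values were seen. Replicate numbers in the titles were taken to pair samples where every same-numbered pair's deviations correlated above 0.1: wild type with knockout (0.371, 0.217 and 0.105) and ApoM with CYM50358 (0.132, 0.115 and 0.132). This choice was made from the values that were then tested, so calls made with the block are no independent support. Knockout replicate 2 and wild-type replicate 3, numbered differently, correlated at 0.197. Promoters are from RefSeq (GRCm38.p6); transcript lengths from GENCODE M21. Alternatives were another pseudocount (0.25), no filter, TMM scaling, the block, other tools, chromosome centring and each library left out.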

Additional observations from a re-analysis of the deposited data

How the results depend on the processing

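Between the genotypes the 8 called collagen genes kept their direction and call under every alternative run, and with each library left out. The treatment comparisons depended on more. Genes called for ApoM against vehicle were 6 as reported, 0 without the filter on low values, 18 with DESeq2, 0 with all 9 treatment libraries in 1 fit, and 0 to 12 with a library left out. For CYM50358 they were 359 as reported, 1 without the filter, 716 with DESeq2, 596 in the fit of 9, and 78 to 474 with a library left out; collagen genes called were 0 as reported, 2 with DESeq2, 1 in the fit of 9 (Col12a1, adjusted p = 0.041 with limma) and 0 to 2 with a library left out. In the direct comparison 360 genes were called as reported, 6 without the filter, 595 with DESeq2, and 130 to 542 with a library left out; collagen genes called were 2 as reported, 0 without the filter, 1 in the fit of 9 and 0 to 2 with a library left out. The libraries that moved a count of genes most were, for ApoM against vehicle, vehicle replicate 1 (12 without it) and ApoM replicates 2 (0) and 3 (1). For CYM50358 they were vehicle replicates 1 (179), 2 (168) and 3 (234) and CYM50358 replicates 2 (78) and 3 (168), and directly ApoM replicates 1 (130) and 2 (141) and CYM50358 replicates 1 (542) and 2 (144). Without the filter more genes are tested, and they also enter the limma fit. The cause of these shifts was not tested.

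With the replicate number as a block limma called 1174 of 13878 genes in the direct comparison, against 360 without it. Of the 9 collagen genes it called 4, against 2 without it. The block changed no collagen call between the genotypes. The pairing in both comparisons was chosen from the same values. Same-numbered vehicle and treated libraries share only a number (correlations of 0.135, -0.122 and 0.0921 for ApoM, 0.0938, -0.161 and -0.0305 for CYM50358). There limma with the block called 17 of 13839 genes for ApoM, 1 collagen gene among them (Col3a1, adjusted p = 0.0051). For CYM50358 it gave Col3a1 and Col12a1 limma adjusted p of 0.0028 and 0.0042. The number called over all genes is not given for that fit, so these are not read as a result about the collagens. A paired form of the chain ratios, chosen after seeing the data, gave 9.24 for Col1a1 to Col1a2 between the genotypes, with an exact sign-flip p of 0.25, the smallest that 3 pairs allow.

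Leaving out a library turned the sign of some differences that had not passed the test. On the log2 scale the ranges were, for ApoM against vehicle, -0.098 to 0.094 (Col12a1), -0.35 to 0.047 (Col1a1), -0.18 to 0.032 (Col5a1) and -0.16 to 0.041 (Col8a1). In the direct comparison they were -0.072 to 0.32 (Col1a1), -0.071 to 0.20 (Col3a1), -0.17 to 0.048 (Col6a1) and -0.28 to 0.13 (Col6a2), and between the genotypes -0.26 to 0.0027 (Col12a1). The log2 ratio of Col3a1 to Col1a1 ranged from -0.093 to 0.26 between the genotypes, -0.44 to 0.061 for ApoM, -0.25 to 0.21 for CYM50358 and -0.36 to 0.14 directly. That of Col5a1 to Col5a2 ranged from -0.12 to 0.21 for CYM50358. That of Col6a1 to Col6a2 ranged from -0.0024 to 0.21 for ApoM, -0.043 to 0.18 for CYM50358 and -0.083 to 0.11 directly. Low read counts limit Col1a2 in the treatment tables, where it had at most 19 reads a library.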
